A study of Homo sapiens with 12 samples.

Results

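Claudins and their tight junction partners were followed in cells of 1 human ovarian cancer line with and without an siRNA against EZH2. The genes were 9 listed by symbol: the claudins CLDN1, CLDN3, CLDN4, CLDN7 and CLDN11, occludin (OCLN), the scaffold protein TJP1, and the immunoglobulin-type adhesion proteins F11R and CXADR. Every probe that the platform's annotation gives to 1 of these symbols was taken, whatever its values. The genes themselves were chosen with earlier results of these data known. This gave 10 probes of 8 genes, among 48803 probes and 18852 named genes on the array. No probe of F11R was named, and that gene was not analysed here. TJP1 and OCLN have 2 probes each and the other 6 genes have 1 each. Of the 10 probes, 7 probes of 6 genes lay above background on at least 4 of the 12 arrays and were tested, among 18126 probes tested in all. The 3 probes not tested were those of CLDN4 and OCLN.

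The study compared 3 groups of 4 bead arrays each. The first group was untransfected cells, which received no siRNA. The second received a scrambled siRNA, called control siRNA here, and the third received an siRNA against EZH2, the methyltransferase of Polycomb repressive complex 2, which silences genes by methylating histone H3. Sample titles call the line SKOV3ip and source labels call it SKOV3. The sources used here give no dose, siRNA sequence or time after transfection. Nothing in the labels says that the 4 arrays of a group came from separate cultures, and p-values therefore reflect array-to-array spread alone, part or all of which may be technical.

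Tight junctions seal the space between neighbouring epithelial cells and separate the upper from the lateral membrane. Claudins span the membrane and polymerise into the strands of the junction, where each claudin either tightens the seal or forms a pore for ions. Occludin lies in the same strands, TJP1 (ZO-1) ties their inner ends to the actin cytoskeleton, and F11R (JAM-A) and CXADR are adhesion receptors of the immunoglobulin superfamily at the same contacts. In ovarian carcinoma, CLDN3, CLDN4 and CLDN7 are known as claudins that are often abundant.

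The promoters of CLDN1, CLDN7 and CLDN11 are printed because these 3 claudins were the members called between EZH2 siRNA and control siRNA. Sequences are from RefSeq on GRCh38.p14 and cover the 250 bases before a transcription start, read 5′ to 3′ on the gene's own strand. Capitals mark the Snail-type E-box (CAGGTG, or CACCTG on the other strand) and the GC box (GGGCGG, or CCGCCC on the other strand). The CLDN1 promoter lies at chr3:190322447-190322696 on the minus strand, the CLDN7 promoter at chr17:7262479-7262728 on the minus strand, and the CLDN11 promoter at chr3:170418618-170418867 on the plus strand.
CLDN1 promoter: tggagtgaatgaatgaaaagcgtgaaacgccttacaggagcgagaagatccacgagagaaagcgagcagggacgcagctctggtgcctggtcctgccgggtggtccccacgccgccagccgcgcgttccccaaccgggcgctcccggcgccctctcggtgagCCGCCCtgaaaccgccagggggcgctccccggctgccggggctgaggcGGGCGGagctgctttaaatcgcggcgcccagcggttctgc
CLDN7 promoter: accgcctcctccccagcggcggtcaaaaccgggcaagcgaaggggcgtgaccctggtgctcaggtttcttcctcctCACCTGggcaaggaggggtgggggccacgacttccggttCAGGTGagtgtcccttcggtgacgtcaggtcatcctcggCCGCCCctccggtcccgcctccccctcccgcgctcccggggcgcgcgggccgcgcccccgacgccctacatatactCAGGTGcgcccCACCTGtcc
CLDN11 promoter: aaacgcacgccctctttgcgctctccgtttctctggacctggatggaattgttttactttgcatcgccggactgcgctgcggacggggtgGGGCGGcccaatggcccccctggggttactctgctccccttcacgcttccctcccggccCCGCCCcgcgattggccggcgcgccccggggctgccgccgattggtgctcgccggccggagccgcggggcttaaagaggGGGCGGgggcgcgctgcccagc
The CLDN1 promoter had a GC content of 68.8%, 28 CpG dinucleotides, 2 GC boxes and 0 E-boxes. The CLDN11 promoter had a GC content of 71.2%, 29 CpG dinucleotides, 3 GC boxes and 0 E-boxes. The CLDN7 promoter had a GC content of 71.2%, 25 CpG dinucleotides, 1 GC box and 4 E-boxes, which begin 174, 135, 20 and 9 bases before the start. All 3 windows were thus richer in CpG than the median of the 35116 promoters in the table, which was 11 CpG dinucleotides at a median GC content of 58.0%. An E-box of these letters was present in 17.5% of all promoters and a GC box in 42.6%. CLDN7 has a further start, whose promoter held 0 E-boxes and 9 CpG dinucleotides, and so has CLDN11, with 0 E-boxes and 2 CpG dinucleotides. A match is a run of letters and not a measured binding site, and no match says only that the letters are not in this window. Of the 9 genes, 7 had a promoter in the table, and F11R and CXADR did not.

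Levels are log2 intensities after background correction and quantile normalisation, and a difference of 1 on this scale is a doubling of the processed signal. The correction added an offset of 50, so fold differences of dim probes such as CLDN7 and CXADR depend on it. A probe was called when its adjusted p in limma was under 0.05. Mean raw signal per array was 157 to 410 intensity units in untransfected cells, 291 to 386 with control siRNA and 186 to 284 with EZH2 siRNA. The 3 dimmest arrays, under 250 units, were untransfected array 4 and EZH2 siRNA arrays 1 and 4. Of 11 epithelial ovarian carcinoma markers, 8 lay above background on all 12 arrays, among them EPCAM, KRT8 and PAX8, while E-cadherin (CDH1) did so on 0. Of markers with a probe, 3 of 7 endothelial, 2 of 7 fibroblast and 1 of 5 leukocyte markers lay above background on at least 4 arrays, with PDGFRA on 11 arrays and PECAM1 on 9, and CDH5, VWF, PDGFRB, LUM, CD3E, CD14 and ITGAM did so on 0. EZH2 siRNA arrays read lower than control siRNA arrays for EZH2 itself, at a log2 fold change of -0.88 (adjusted p = 0.00144 in limma), with no overlap between the arrays. Probes above background on all 12 arrays are called bright probes here, although some of them are dim. Under a 75th percentile shift over bright probes the EZH2 value was -0.59 (adjusted p = 0.212 in limma). EZH2 in control siRNA cells against untransfected cells gave -0.43 (adjusted p = 0.0895), not called but with no overlap, and was called under cyclic loess normalisation (-0.42, adjusted p = 0.0316).

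Between EZH2 siRNA and control siRNA, CLDN1 and CLDN11 fell, CLDN7 rose, and CLDN3, CXADR and both TJP1 probes did not pass the test. CLDN1, a sealing claudin of many epithelia and of the epidermis, was 2.08-fold lower. CLDN11, the claudin of myelin and of the Sertoli cell barrier, was 1.57-fold lower. CLDN7, an epithelial claudin known to bind EPCAM, was 1.36-fold higher. In RNA of whole cultures, fewer cells with a transcript and less of it per cell cannot be told apart. The 3 called probes of 7 tested (1 higher, 2 lower) stand beside 4.04% of all tested probes called in this comparison, 1.75% higher and 2.29% lower. Because the members were chosen with earlier results of these data known, such counts are a description only, in each comparison. The median log2 fold change over the 7 probes was -0.31, and over all tested probes it was -0.02. Of the 7 probes 2 are of TJP1, and in each of the 3 comparisons the median is the value of the same 1 of these. It therefore does not describe a shift of the genes as a set.

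Control siRNA cells and untransfected cells also differed in these genes. CLDN1 was 1.49-fold higher with control siRNA and CLDN11 was 2.56-fold lower, so 2 of 7 probes were called (1 higher, 1 lower), beside 6.18% of all tested probes (3.67% higher, 2.52% lower). The median log2 fold change over the 7 probes was -0.20, against 0.01 over all tested probes. Between EZH2 siRNA and untransfected cells 6 of 7 probes were called (1 higher, 5 lower), beside 16.1% of all tested probes (8.41% higher, 7.73% lower). CLDN3 was the probe not called there. Of the 6, CLDN7 and CXADR lay above background on 1 of 4 arrays in their lower group and passed the filter through the groups where they were higher, so the count is a description only. The 7 probes' median log2 fold change was -0.51, against -0.01 over all tested probes. The 3 comparisons share arrays pairwise, so their values are given side by side and are not independent of each other.

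**Figure D1:**
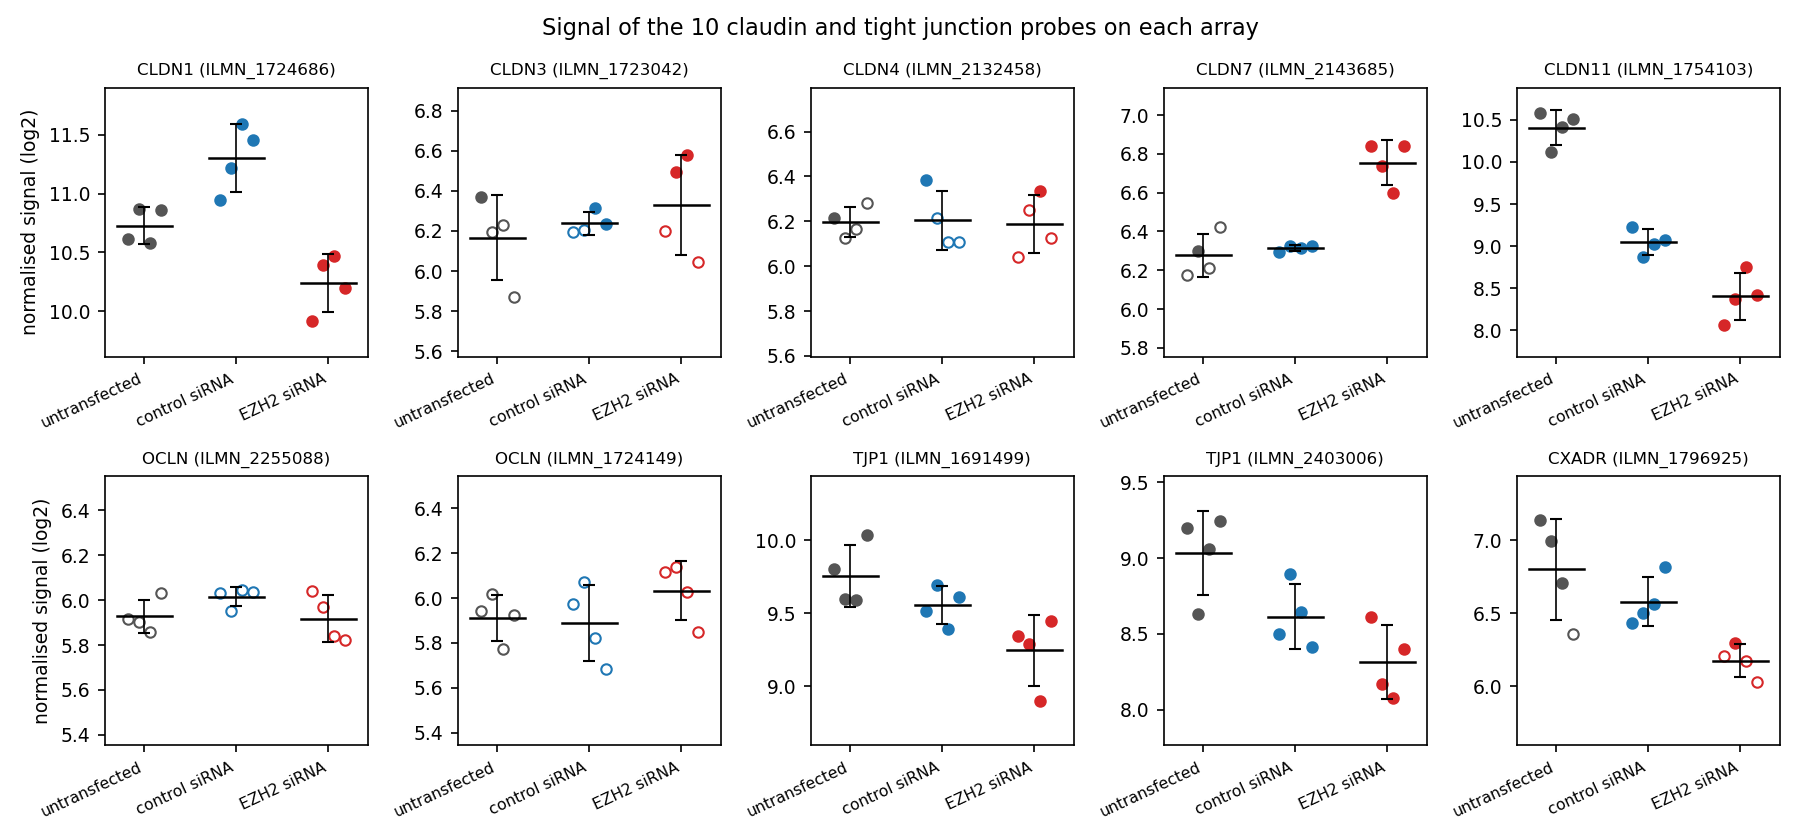
Normalised log2 intensity of each of the 10 member probes (vertical axes) by group (horizontal axes), with 1 point per array, filled where the probe lay above background and open where it did not; the line is the mean and the bar the SD over 4 arrays. CLDN1 sat highest with control siRNA at 10.94 to 11.59 and lowest with EZH2 siRNA at 9.92 to 10.47, CLDN11 stepped down from untransfected to control to EZH2 siRNA, and CLDN4 and OCLN stayed near or at background.

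CLDN1 (probe ILMN_1724686) was measured at 10.61, 10.87, 10.58 and 10.86 in untransfected arrays 1 to 4, at 10.94, 11.22, 11.59 and 11.46 with control siRNA, and at 9.92, 10.39, 10.47 and 10.20 with EZH2 siRNA. The 3 groups did not overlap: control siRNA arrays were highest, untransfected arrays lay between, and EZH2 siRNA arrays were lowest. The group means were 10.73 ± 0.15, 11.30 ± 0.29 and 10.24 ± 0.25 in the same order (SD, n = 4). In raw intensity, control siRNA arrays read 2116 to 4344 and EZH2 siRNA arrays 521.1 to 1506, without overlap. Every EZH2 siRNA array was also dimmer overall (mean raw signal 186 to 284) than every control siRNA array (291 to 386). Raw separation alone therefore cannot tell a lower CLDN1 level from dimmer arrays. Untransfected arrays read 818.1 to 2616 in raw intensity and overlapped both siRNA groups. The log2 fold change of EZH2 siRNA against control siRNA was -1.06 (95% confidence interval -1.37 to -0.75, SE 0.15, adjusted p = 0.00031 in limma). That of control siRNA against untransfected cells was 0.57 (95% confidence interval 0.26 to 0.88, SE 0.15, adjusted p = 0.0238).

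Against untransfected cells, CLDN1 in EZH2 siRNA cells was lower by a log2 fold change of -0.49 (95% confidence interval -0.79 to -0.18, adjusted p = 0.0307 in limma). The difference from untransfected cells was therefore smaller in size than the difference from control siRNA, with the control siRNA level lying above both. Without the 3 dimmest arrays the value against untransfected cells was -0.26 (adjusted p = 0.441) and no longer called. The difference from control siRNA without them was -0.87 (adjusted p = 0.019), still called. Leaving out single arrays ended the call against untransfected cells without untransfected array 2 (-0.44) or 4 (-0.44) or EZH2 siRNA array 1 (-0.38) or 4 (-0.47). It ended the call of control siRNA against untransfected cells without untransfected array 1 (0.53) or 3 (0.52) or control siRNA array 3 (0.48) or 4 (0.52). A 75th percentile shift in place of quantile normalisation also ended both calls.

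CLDN11 (probe ILMN_1754103) was measured at 10.58, 10.11, 10.42 and 10.50 in untransfected arrays 1 to 4, at 9.23, 8.87, 9.03 and 9.08 with control siRNA, and at 8.06, 8.38, 8.75 and 8.42 with EZH2 siRNA. Every untransfected array lay above every control siRNA array, and every control siRNA array lay above every EZH2 siRNA array. The group means were 10.40 ± 0.21, 9.05 ± 0.15 and 8.40 ± 0.28 (SD, n = 4). The larger of the 2 steps was between untransfected and control siRNA cells, at a log2 fold change of -1.35 (95% confidence interval -1.65 to -1.06, SE 0.14, adjusted p = 2.99e-06 in limma). The step from control siRNA to EZH2 siRNA was -0.65 (95% confidence interval -0.95 to -0.35, SE 0.14, adjusted p = 0.0129). EZH2 siRNA against untransfected cells gave -2.0025 (95% confidence interval -2.30 to -1.71, adjusted p = 9.29e-09), a 4.01-fold lower level.

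In raw intensity, CLDN11 read 550.4 to 852.5 with control siRNA and 149.3 to 430 with EZH2 siRNA, without overlap. As for CLDN1, the EZH2 siRNA arrays were all dimmer overall than the control siRNA arrays, so raw separation alone does not decide this. Untransfected arrays read 644 to 2569 in raw intensity and overlapped the control siRNA arrays through the dim untransfected array 4, at 644. Without the 3 dimmest arrays the step from control siRNA to EZH2 siRNA was -0.49 (adjusted p = 0.195) and not called, and without EZH2 siRNA array 1 alone it was -0.54 (adjusted p = 0.0635). Under a 75th percentile shift it was -0.95 over all probes (adjusted p = 0.0881) and -0.62 over bright probes (adjusted p = 0.127). Both differences from untransfected cells were called under all 26 alternatives.

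CLDN7 (probe ILMN_2143685) was dim, with raw intensities of 60.5 to 93.2 where the background of the arrays lay at 49.7 to 56.5. It lay above background on 1 untransfected array and on all 4 arrays of each siRNA group. Its levels were 6.17, 6.30, 6.21 and 6.42 in untransfected arrays 1 to 4, 6.30, 6.33, 6.32 and 6.32 with control siRNA, and 6.84, 6.74, 6.60 and 6.84 with EZH2 siRNA. The EZH2 siRNA arrays lay above all 8 others, and the other groups overlapped. The means were 6.28 ± 0.11, 6.32 ± 0.01 and 6.75 ± 0.12 (SD, n = 4).

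For CLDN7 EZH2 siRNA against control siRNA gave a log2 fold change of 0.44 (95% confidence interval 0.22 to 0.66, SE 0.11, adjusted p = 0.0223 in limma). Against untransfected cells it was 0.48 (95% confidence interval 0.26 to 0.70, adjusted p = 0.00427), a difference whose size is not settled because 3 of 4 untransfected arrays were at background. Control siRNA against untransfected cells gave 0.04 (95% confidence interval -0.18 to 0.26, adjusted p = 0.902). Raw intensities of CLDN7 overlapped between EZH2 siRNA (73.7 to 93.2) and control siRNA (67.1 to 81.3), so the separation appears after normalisation. With a background estimated per array and an offset of 16, changed together, the difference from control siRNA was 0.90. Without the 3 dimmest arrays it was 0.35 (adjusted p = 0.189), and with array brightness as a covariate it was 0.35 (adjusted p = 0.0929), neither of them called. Leaving out control siRNA array 2, 3 or 4 or EZH2 siRNA array 1 or 4 also ended the call, with values of 0.41 to 0.44 and an adjusted p of up to 0.0771.

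CLDN3, a receptor for Clostridium perfringens enterotoxin, was near background. Its probe (ILMN_1723042) lay above background on 1 untransfected array, 2 control siRNA arrays and 2 EZH2 siRNA arrays. Levels were 6.37, 6.20, 6.23 and 5.87 in untransfected arrays 1 to 4, 6.19, 6.21, 6.32 and 6.23 with control siRNA, and 6.20, 6.49, 6.58 and 6.04 with EZH2 siRNA. The 3 groups overlapped, and EZH2 siRNA minus control siRNA gave 0.09 (95% confidence interval -0.19 to 0.37, adjusted p = 0.78 in limma). The confidence intervals of the other 2 comparisons also held 0, with values of 0.07 for control siRNA and 0.16 for EZH2 siRNA against untransfected cells.

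CLDN4, also a receptor for this enterotoxin, was not tested. Its probe (ILMN_2132458) lay above background on 1 array of each group, with levels of 6.13 to 6.28 in untransfected arrays, 6.11 to 6.39 with control siRNA and 6.04 to 6.34 with EZH2 siRNA. The 3 ranges overlapped. The 2 OCLN probes lay above background on 0 of 12 arrays, with levels of 5.82 to 6.04 (ILMN_2255088) and 5.68 to 6.14 (ILMN_1724149). A signal at background gives no level for CLDN4 or OCLN and does not show that their RNA was absent.

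CXADR, the receptor for coxsackieviruses and adenoviruses, was lowest with EZH2 siRNA. Its probe (ILMN_1796925) was measured at 7.14, 6.997, 6.71 and 6.36 in untransfected arrays 1 to 4, at 6.43, 6.50, 6.56 and 6.82 with control siRNA, and at 6.21, 6.29, 6.18 and 6.03 with EZH2 siRNA. The EZH2 siRNA arrays lay below all others, and the untransfected and control siRNA arrays overlapped. It was above background on 3 untransfected arrays, on 4 control siRNA arrays and on 1 EZH2 siRNA array. EZH2 siRNA against untransfected cells gave a log2 fold change of -0.63 (95% confidence interval -0.93 to -0.32, adjusted p = 0.00654 in limma) and was called. The probe passed the filter on dim signal through the other groups, and with 3 of 4 EZH2 siRNA arrays at background the size of this difference is not settled. EZH2 siRNA against control siRNA gave -0.40 (95% confidence interval -0.71 to -0.10, adjusted p = 0.133) and was not called, although its exact two-sided permutation test gave p = 0.0286, the smallest value that 4 arrays against 4 allow. With a background estimated per array and an offset of 16, the first of these was -1.26 and the second -0.88, while a 75th percentile shift over bright probes turned the second to 0.074.

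TJP1, the cytoplasmic scaffold, was measured by 2 probes that gave like differences. The first (ILMN_1691499) read 9.80, 9.60, 9.59 and 10.03 in untransfected arrays 1 to 4, 9.52, 9.69, 9.39 and 9.61 with control siRNA, and 9.34, 9.29, 8.90 and 9.45 with EZH2 siRNA. The second (ILMN_2403006) read 9.20, 8.63, 9.06 and 9.24, then 8.50, 8.90, 8.64 and 8.41, then 8.61, 8.17, 8.08 and 8.40 in the same order. On both probes the EZH2 siRNA arrays lay below every untransfected array, and the control siRNA arrays overlapped both other groups.

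TJP1 fell between untransfected and EZH2 siRNA cells, with log2 fold changes of -0.51 (95% confidence interval -0.79 to -0.23, adjusted p = 0.0145 in limma) on the first probe and -0.72 (95% confidence interval -1.04 to -0.40, adjusted p = 0.00317) on the second. EZH2 siRNA against control siRNA gave -0.31 (adjusted p = 0.22) and -0.30 (adjusted p = 0.304), and control siRNA against untransfected cells gave -0.20 (adjusted p = 0.478) and -0.42 (adjusted p = 0.118). None of these 4 values was called. Under a 75th percentile shift over all probes the values against control siRNA were -0.65 (adjusted p = 0.102) and -0.63 (adjusted p = 0.126). The second probe was called lower with control siRNA than in untransfected cells when untransfected array 2 was left out (-0.55, adjusted p = 0.032). As 2 probes of 1 transcript locus, they do not count as independent genes.

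**Figure D2:**
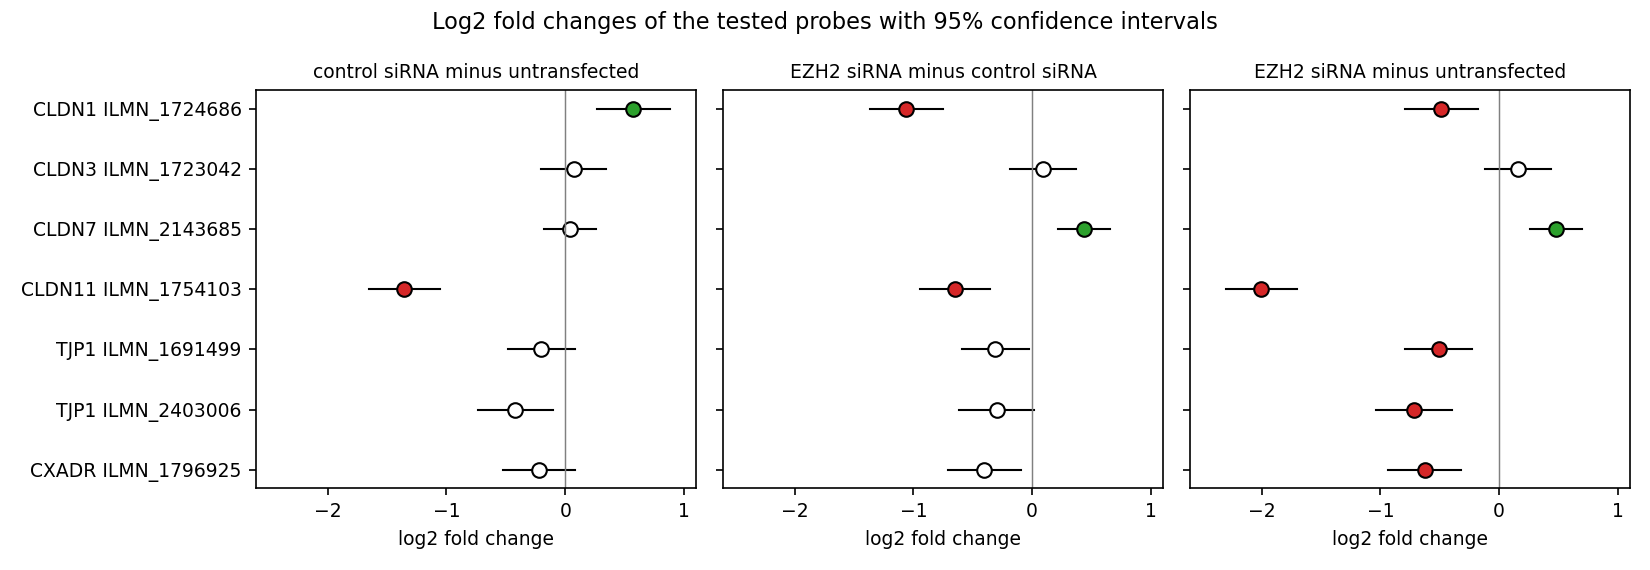
Log2 fold change (horizontal axes) with its 95% confidence interval for the 7 tested member probes, with 1 panel per comparison; green points were called higher, red points called lower and white points were not called. CLDN1, CLDN7 and CLDN11 were called between EZH2 siRNA and control siRNA, CLDN1 and CLDN11 between control siRNA and untransfected cells, and all but CLDN3 between EZH2 siRNA and untransfected cells.

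Non-overlapping arrays were found for 4 of 7 probes between EZH2 siRNA and control siRNA (CLDN1, CLDN7, CLDN11 and CXADR), where the share was 10.7% of all tested probes. This held for 2 of 7 probes between control siRNA and untransfected cells (CLDN1 and CLDN11), against 13.5% of all tested probes. For EZH2 siRNA and untransfected cells it was 6 of 7 probes, 2 of them of TJP1, against 15.9% of all tested probes. CXADR lay above background on only 1 of 4 EZH2 siRNA arrays, and CLDN7 on only 1 of 4 untransfected arrays. Both passed the filter on dim signal through groups where they were higher, so these counts are a description only. The member values by comparison fell into unlike orders. CLDN11 and the TJP1 probes were highest in untransfected cells and lowest with EZH2 siRNA, CLDN1 was highest with control siRNA, and CLDN7 was highest with EZH2 siRNA. Neighbouring groups in these orders did not differ beyond the test's threshold for TJP1 in either step, for CXADR in either step, and for CLDN7 between untransfected and control siRNA cells.

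**Figure D3:**
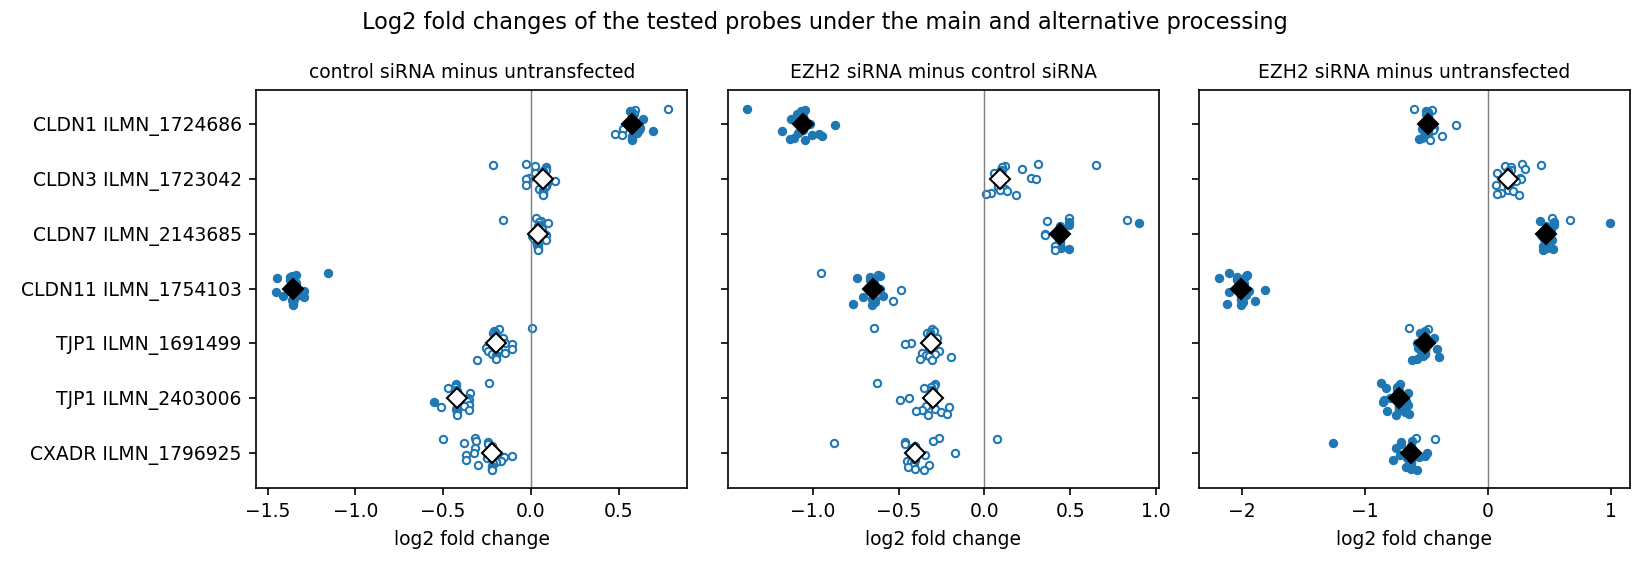
Log2 fold change (horizontal axes) of each tested member probe under the main processing (diamond) and under each alternative (dots), with 1 panel per comparison; filled symbols had an adjusted p under 0.05. The CLDN1 difference between EZH2 siRNA and control siRNA and both CLDN11 differences from untransfected cells stayed filled under every alternative, while CLDN7 against control siRNA held filled and open dots.

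Beyond the members, 114 further genes were listed by role, proteins of cell junctions and 21 transcription factors known to act on their genes, and 73 of them had a tested probe, taking the brightest per gene. Between EZH2 siRNA and control siRNA 4 of 73 were called, 0 higher and 4 lower, beside 4.75% of all genes with a tested probe (2.02% higher, 2.73% lower). Between control siRNA and untransfected cells 4 of 73 were called, 3 higher and 1 lower, beside 7.62% of all genes (4.75% higher, 2.87% lower). Between EZH2 siRNA and untransfected cells 11 of 73 were called, 5 higher and 6 lower, beside 18.2% of all genes (9.92% higher, 8.29% lower). These shares, 5.48%, 5.48% and 15.1%, lie near those of all genes.

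Of 20 other claudins, 9 had a tested probe. In limma 0 were called between EZH2 siRNA and control siRNA (1 at an unadjusted p under 0.05) and 0 between EZH2 siRNA and untransfected cells (2 unadjusted). Between control siRNA and untransfected cells 2 rose: CLDN15, a pore-forming claudin of the intestine, by a log2 fold change of 0.48 (SE 0.12, adjusted p = 0.025) and CLDN23 by 0.55 (SE 0.15, adjusted p = 0.0292). Neither gene was called under either 75th percentile shift, without untransfected array 4, or without control siRNA array 3 or 4. CLDN15 lost its call under 6 of 26 alternatives and CLDN23 under 9, among them leaving out the 3 dimmest arrays. Of 16 other tight junction membrane proteins, 8 were tested and 0 were called by limma in any of the 3 comparisons, with 1, 0 and 2 at an unadjusted p under 0.05. Median log2 fold changes of the other claudins were 0.02, 0.02 and 0.06 in the 3 comparisons, beside -0.02, 0.02 and -0.0025 over all genes. Some of these genes were near background. CLDN9, CLDN16 and CLDN25 lay above it on 7, 7 and 6 arrays, and MARVELD2 and ESAM on 4 and 5. For such dim probes, a missing call or a value near 0 does not show an unchanged level.

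Of 38 scaffold, polarity and actin-linked genes, 28 were tested. Between EZH2 siRNA and control siRNA 2 of them fell: the polarity protein PARD6G at a log2 fold change of -0.43 (adjusted p = 0.0316 in limma) and, with overlapping arrays and named after its values were seen, the kinase ROCK2 at -0.53 (adjusted p = 0.0362). MYLK, the myosin light chain kinase that contracts the ring of actin at the junction, fell by 0.57 on the log2 scale between untransfected and control siRNA cells (adjusted p = 0.00982). It was 2.03-fold lower with EZH2 siRNA than in untransfected cells (adjusted p = 2.37e-05). In that comparison the polarity genes PRKCZ (0.48, adjusted p = 0.00993) and LLGL1 (0.59, adjusted p = 0.0121) rose. PALS1 (-0.61), PARD6G (-0.38) and YBX3 (-0.43) fell in it and are named after their values were seen.

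Of 19 adherens junction and desmosome genes, 16 were tested. VCL, which anchors actin at adherens junctions, fell between control siRNA and EZH2 siRNA cells at a log2 fold change of -0.57 (adjusted p = 0.019 in limma). The desmosomal cadherin DSG2 also fell there, at -0.59 (adjusted p = 0.0269), with overlapping arrays, and is named after its values were seen. Against untransfected cells, EZH2 siRNA cells had lower DSG2 (-0.58, adjusted p = 0.0107) and lower N-cadherin, CDH2 (-0.49, adjusted p = 0.0193), and higher plakoglobin, JUP (0.43, adjusted p = 0.0157). Of 21 transcription factors listed for epithelial junction genes, 12 were tested and 0 were called by limma between EZH2 siRNA and control siRNA, with 3 at an unadjusted p under 0.05. KLF4, an epithelial transcription factor, was 2.05-fold higher with control siRNA than in untransfected cells (log2 fold change 1.03, adjusted p = 2.32e-06) and higher by 0.95 with EZH2 siRNA (adjusted p = 4.17e-06). FOXO1 was higher by 0.40 with EZH2 siRNA than in untransfected cells (adjusted p = 0.0132).

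Without the 3 dimmest arrays, PARD6G, VCL, ROCK2 and DSG2 were no longer called between EZH2 siRNA and control siRNA, where 0 of 73 listed genes remained called, and 2 of 73, MYLK and KLF4, were called between EZH2 siRNA and untransfected cells. Between EZH2 siRNA and control siRNA, 0 of 73 were also called without control siRNA array 2, 3 or 4 or without EZH2 siRNA array 1, so all 4 calls were lost there. In the same order, these settings called 294, 307, 375 and 285 of all probes, against 732 in the main processing. Without EZH2 siRNA array 4 it was 1 of 73, beside 377 of all probes. Without EZH2 siRNA array 2 it was 8 of 73, beside 868 of all probes. Leaving out the 3 dimmest arrays gave 171 of all probes against control siRNA and 1076 against untransfected cells, where the main processing gave 732 and 2926. Loss of calls was thus not particular to the listed genes.

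**Figure D4:**
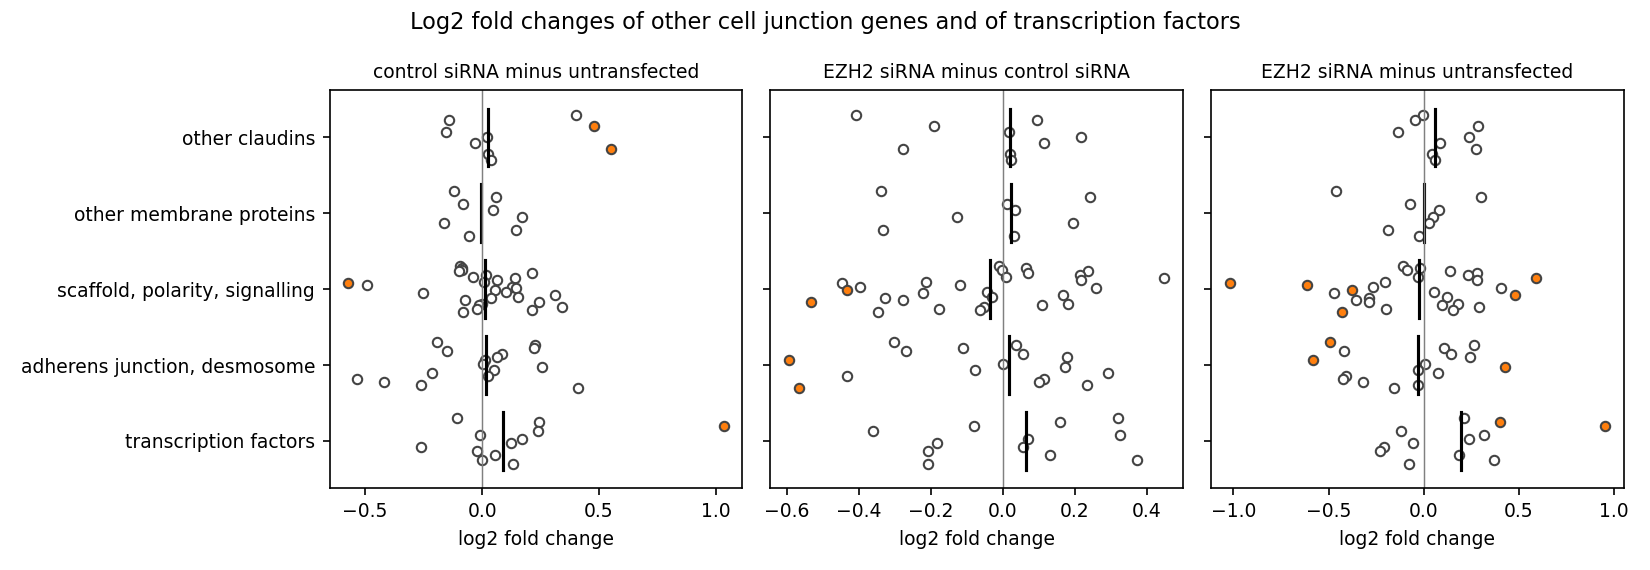
Log2 fold change (horizontal axes, which differ between panels) of every tested gene of 5 lists of junction proteins or transcription factors (rows) in each of the 3 comparisons. Points filled orange were called, points filled white were not, and the vertical bar is the median of the list. The medians lay close to 0 for 4 of the lists, and KLF4 stood farthest to the right among the transcription factors in both comparisons with untransfected cells.

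The genes whose levels ran most like each member over the 12 arrays were ranked by Pearson's r, given here as a description, since the arrays share group differences and brightness. For CLDN1 they were ORC6 (r = 0.97) and FAR2 (r = 0.96). For CLDN11 they were CYP24A1 and a probe that the platform annotation gives to FAM72B (both r = 0.98). For CLDN7 they were SERF2 and CAVIN3 (both r = 0.95). CLDN3 was followed most closely by POLR3GL (r = 0.94) and CIMIP5 (r = 0.90), TJP1 by GOLIM4 and KDM1B (both r = 0.90), and CXADR by GNPNAT1 (r = 0.94). The second-ranked probe for CXADR belongs to a protocadherin gene with a near-identical copy elsewhere in the genome and is not named.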

How the data were processed

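RNA of 12 samples was measured on Illumina bead arrays. The deposited raw table lists an intensity for each probe on each array, and BeadStudio 3.2 is named in the submitters' processing notes. The deposited second table holds the authors' log2 values, which equal log2 of the raw table after quantile normalisation to within 5e-05. The raw table was used, with 0 columns of sample values left unused, and the log2 table served as an alternative.

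In limma 3.58.1 (R 4.3.3), normexp background correction with an offset of 50, quantile normalisation and log2 were applied to the raw values. The files carry no detection p-values, so each array's background was its most frequent signal with the spread below it mirrored. Probes above it at p under 0.01 on at least 4 of 12 arrays were tested. One linear model (lmFit, eBayes) held 3 groups, with Benjamini-Hochberg adjustment over 18126 probes. For member probes an exact two-sided permutation test was added, whose smallest p is 0.0286. The number of arrays limits precision (median SE over tested probes 0.13).

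Probes were named from the platform annotation (1 symbol for 28098 probes, several for 13, none for 20692). Named are all members, EZH2, the 3 most changed called genes per list and comparison whose arrays did not overlap, and the 2 genes most like each member by Pearson's r. The members and lists were chosen with earlier results of these data known. Deviations of same-numbered arrays gave mixed correlations (-0.38 to 0.46, over 0.1 for 5 of 12 pairs), and the numbers were not used as pairs. The pipeline was tested on simulated data. Python 3.11.15, pandas 2.3.3 and matplotlib 3.10.9 were used for promoters and figures.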

Additional observations from a re-analysis of the deposited data

How the results depend on the processing

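The difference of CLDN1 between EZH2 siRNA and control siRNA and those of CLDN11 between either siRNA group and untransfected cells were called under each of the 26 alternatives. These alternatives are not all separate checks. No background correction and the deposited log2 table each called 705, 1084 and 2880 probes. Leaving out each array in turn includes arrays of the group not compared. Where other calls were lost, the cause was not tested. Under a 75th percentile shift over all probes, 1, 1 and 2 of the 7 member probes were called in the order EZH2 siRNA against control siRNA, control siRNA or EZH2 siRNA against untransfected cells, and over bright probes it was 1, 1 and 1. Without the 3 dimmest arrays 1 was called in the first comparison, and with a background estimated per array (offset 16) it was 1 in the second. Leaving out each array gave 1 to 3, 1 to 3 and 5 to 6. Against control siRNA, CLDN7 was lost under 10 alternatives, and CLDN11 under 4, among them leaving out EZH2 siRNA array 1 (adjusted p = 0.0635 in limma). CLDN1 was lost under 7 between control siRNA and untransfected cells and under 9 between EZH2 siRNA and untransfected cells, where CLDN7, CXADR and the first TJP1 probe were lost under both shifts and the second TJP1 probe under that over bright probes.

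Values that changed sign were uncalled ones: CLDN3 in control siRNA against untransfected cells (-0.028 and -0.21 under the shifts, -0.0087 with array brightness as a covariate, -0.0278 without the dim arrays, and -0.0278 to 0.138 leaving out each array), CLDN7 there (-0.16 over bright probes), the first TJP1 probe there (0.0036 over all probes) and CXADR against control siRNA (0.074 over bright probes). Over all probes, the main processing called 732, 1121 and 2926. The shift over all probes called 144, 310 and 486, and that over bright probes 80, 330 and 736. Array weights called 1227 and 1865 in the first 2 comparisons, and own background 413 in the first. Without the dim arrays 171 were called in the first and 1076 in the last. Leaving out each array gave 285 to 1290, 678 to 1190 and 1905 to 3204. Probes called higher and lower were 317 and 415, 665 and 456, and 1525 and 1401, against 9 and 135, 252 and 58, and 178 and 308 under the shift over all probes. The shift over bright probes moved the median of all probes to 0.25, -0.14 and 0.15. The 73 further listed genes gave 4, 4 and 11 calls, and 0 to 8, 1 to 8 and 2 to 16 under the alternatives.

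With the replicate number as a block, 3, 2 and 6 member probes were called, as without it, and 776, 1074 and 2911 probes in all. Whether the numbers pair the arrays is not settled by these values, and not every array correlated best with its own number.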

Other observations

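CLDN1 lies on chromosome 3 in the RefSeq gene order P3H2, CLDN16, CLDN1, TMEM207, IL1RAP, and these neighbours are named after their values were seen. P3H2, a collagen prolyl hydroxylase, fell between control siRNA and EZH2 siRNA cells at a log2 fold change of -1.38 (adjusted p = 2.64e-06 in limma) and gave -0.22 (adjusted p = 0.37) for control siRNA against untransfected cells, which was not called. Against untransfected cells, P3H2 was lower with EZH2 siRNA by a log2 fold change of -1.60 (adjusted p = 3.24e-08). IL1RAP, the co-receptor for interleukin-1, rose between untransfected and control siRNA cells (0.65, adjusted p = 0.0276), as CLDN1 did, and gave -0.44 (adjusted p = 0.166) with EZH2 siRNA against control siRNA. CLDN16 and TMEM207, the genes directly beside CLDN1, were not called in any of the 3 comparisons. CLDN16 was near background: 1 of its 3 probes was tested, above background on 1 EZH2 siRNA array and 2 control siRNA arrays. The missing call therefore does not show an unchanged CLDN16 level. The directly neighbouring CLDN3 and CLDN4 on chromosome 7 were both near background, while STX1A, 2 genes before CLDN3 and a syntaxin of vesicle release, was higher than in untransfected cells by 1.01 with control siRNA (adjusted p = 0.00517) and by 1.28 with EZH2 siRNA (adjusted p = 0.000343). METTL27, directly after CLDN4, was higher by 0.53 with EZH2 siRNA than in untransfected cells (adjusted p = 0.00652). Both are named after their values were seen.

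Epithelial genes gave unlike signals. EPCAM, KRT7, KRT8, KRT18 and KRT19 lay above background on all 12 arrays, and CDH1 and both OCLN probes on 0. Control siRNA cells had lower KRT7 (-0.53, adjusted p = 0.0146 in limma) and higher PAX8 (0.66, adjusted p = 0.00302) and MSLN (0.52, adjusted p = 0.046) than untransfected cells. MSLN had overlapping arrays and is named after its values were seen. These calls, 2 higher and 1 lower of 10 tested markers, stand beside 7.62% of all genes with a tested probe. EZH2 siRNA cells had higher PAX8 (0.53, adjusted p = 0.00881 in limma) and ERBB2 (0.50, adjusted p = 0.00719) than untransfected cells. These were 2 of 10 tested markers, beside 18.2% of all genes. Between EZH2 siRNA and control siRNA, 0 of 10 tested markers were called by limma, beside 4.75% of all genes, with 3 at an unadjusted p under 0.05. EPCAM, the partner of CLDN7, had log2 fold changes of 0.01 for EZH2 siRNA against control siRNA, -0.08 for control siRNA against untransfected cells and -0.07 for EZH2 siRNA against untransfected cells, with no call, beside CLDN7 values of 0.44, 0.04 and 0.48.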
